A study of Mus musculus with 32 samples.

Results

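The cholesterol synthesis and sterol-response genes of mouse liver were taken as a named list of 31 genes, matched by symbol to the identifiers of a table of 52636 genes. The list holds 8 genes of the mevalonate stage, 11 of the sterol stage that runs from squalene to cholesterol, 4 of the sterol sensor, 6 of sterol transport and 2 of cholesterol esterification. A filter on low counts kept 15599 genes for testing, and 30 of the 31 listed genes were among them. The exception was Npc1l1, a sterol uptake protein, which had between 0 and 10 counts in each library.

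Bulk sequencing of polyadenylated liver RNA was available for 32 mice in 8 groups of 4, each mouse with its own number in the labels. All 8 groups were given the PTU/LID diet, which lowers thyroid hormone, so that the animals without hormone replacement were hypothyroid. By its title, the study is about what thyroid hormone receptor beta1 does while liver fibrosis resolves. The groups cross genotype (wild type or a knockout of the receptor beta gene, Thrb), hormone and injection. The hormone was T3, the active thyroid hormone, dissolved at 1 µg/ml in drinking water for the final week, and control mice are labelled PBS. The injection was carbon tetrachloride (CCl4), a solvent that injures hepatocytes, given at 0.4 µl/g in 9 injections, 2 a week for 4 weeks, and control mice are labelled oil. RNA was collected 24 hours after the last injection. The 8 groups are thus wild type PBS oil, wild type PBS CCl4, wild type T3 oil, wild type T3 CCl4, and the same 4 in knockouts. Age, sex and strain are not given in the labels, and the knockout is described only by the name of the gene, with no promoter or cell type.

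Hepatocytes make cholesterol from acetyl-CoA. The mevalonate stage builds isoprene units and joins them into farnesyl diphosphate, and the sterol stage couples that product into squalene, closes the rings and trims the molecule to cholesterol. When sterols run low in the endoplasmic reticulum, the escort protein SCAP carries the factor SREBP2 to the Golgi, where it is cut and then switches on nearly every enzyme of the pathway. The INSIG proteins hold SCAP back when sterols are plentiful. Thyroid hormone is known to lower blood cholesterol and acts in hepatocytes largely through receptor beta.

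The libraries held 16985162 to 26118055 counts each. Values below are CPM, the counts of a gene relative to the library's total after scaling by the trimmed mean of M-values, and differences are log2 fold changes ± SE from the edgeR quasi-likelihood test, with p-values adjusted over all 15599 genes by the Benjamini-Hochberg method. A gene is said to be called, or to rise or fall, at an adjusted p under 0.05. Thrb itself kept reads in the knockouts, at 15.9 to 42.6 CPM with PBS and 15.9 to 33.7 CPM with T3, against 10.7 to 66.4 and 32.8 to 60.6 CPM in wild type, so counts per gene do not show which part was removed. Dio1, a textbook T3 target that encodes a deiodinase, separated the labels, with 844 to 1185 CPM in wild type with T3 and 77.3 to 135 CPM in knockouts with T3. The 2 libraries farthest from their group means over all genes were wild-type PBS CCl4 mouse 2 and knockout PBS CCl4 mouse 3 (the distant libraries below). Without both, T3 was called for 28 of the 30 listed genes in wild type after CCl4, 27 higher and 1 lower, Soat2. CCl4 was then called for 13 in place of 16 in PBS wild type. The genotype difference of the T3 response after CCl4 was called for 13 in place of 18, with Hmgcs1, Idi1, Mvk, Msmo1 and Abca1 no longer called. The 6 hepatocyte markers were abundant in every group, from 45146 to 167862 CPM summed. Of the enterocyte markers, Sis and Lct stayed under 1 CPM in every library, as did Cpa1, Prss2 and Pnlip of the pancreas markers. The summed enterocyte level was 33.9 to 123 CPM over all groups, and the other 4 markers exceeded 1 CPM in at least 1 library. The pancreas sum, from Cela1 with those 3, was 8.89 to 13.6 CPM in wild type PBS oil and 37.8 to 64.7 CPM in wild type T3 oil, and 3.50 to 20.7 CPM in the other groups. Cela1 was called higher with T3 in wild type in both settings, and its part in the results was not tested.

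T3 raised most of the pathway in wild-type liver, with or without injury. Among the 30 tested genes, 19 rose and 2 fell with T3 on oil, where 19.0% of all tested genes rose and 16.2% fell. After CCl4, 27 rose and none fell, where 20.0% of all tested genes rose. All 19 that rose on oil rose after CCl4 too. The median log2 fold change of the listed genes was 1.08 on oil and 1.93 after CCl4, against -0.02 and -0.06 over all genes. Of the 19 synthesis enzymes, 14 rose on oil and 18 after CCl4. In bulk liver, a change in the number of hepatocytes and a change in RNA per hepatocyte cannot be told apart. The hepatocyte markers moved with both of these comparisons, in opposite directions: 5 of 6 rose with T3 after CCl4, from a summed level of 45146 to 65824 CPM to one of 76401 to 110632 CPM. On oil, none rose and 2 fell, Alb and Ttr, and the summed level went from 115155 to 164363 CPM to 72178 to 102962 CPM, without overlap. The 6 cholangiocyte markers all fell with T3 after CCl4, from 45.7 to 91.1 CPM summed to 26.6 to 38.8 CPM. On oil 1 of them fell, with sums of 37.3 to 55.1 and 23.6 to 34.8 CPM. Of the monocyte-derived macrophage markers 2 of 6 fell after CCl4, where the sums overlapped at 178 to 389.9 and 105 to 201 CPM, and 3 rose on oil. The 6 Kupffer cell markers all rose with T3 in both settings, from 78.3 to 168 CPM summed to 679 to 1069 CPM on oil. The part of these markers in the sterol gene result was not tested.

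**Figure D1:**
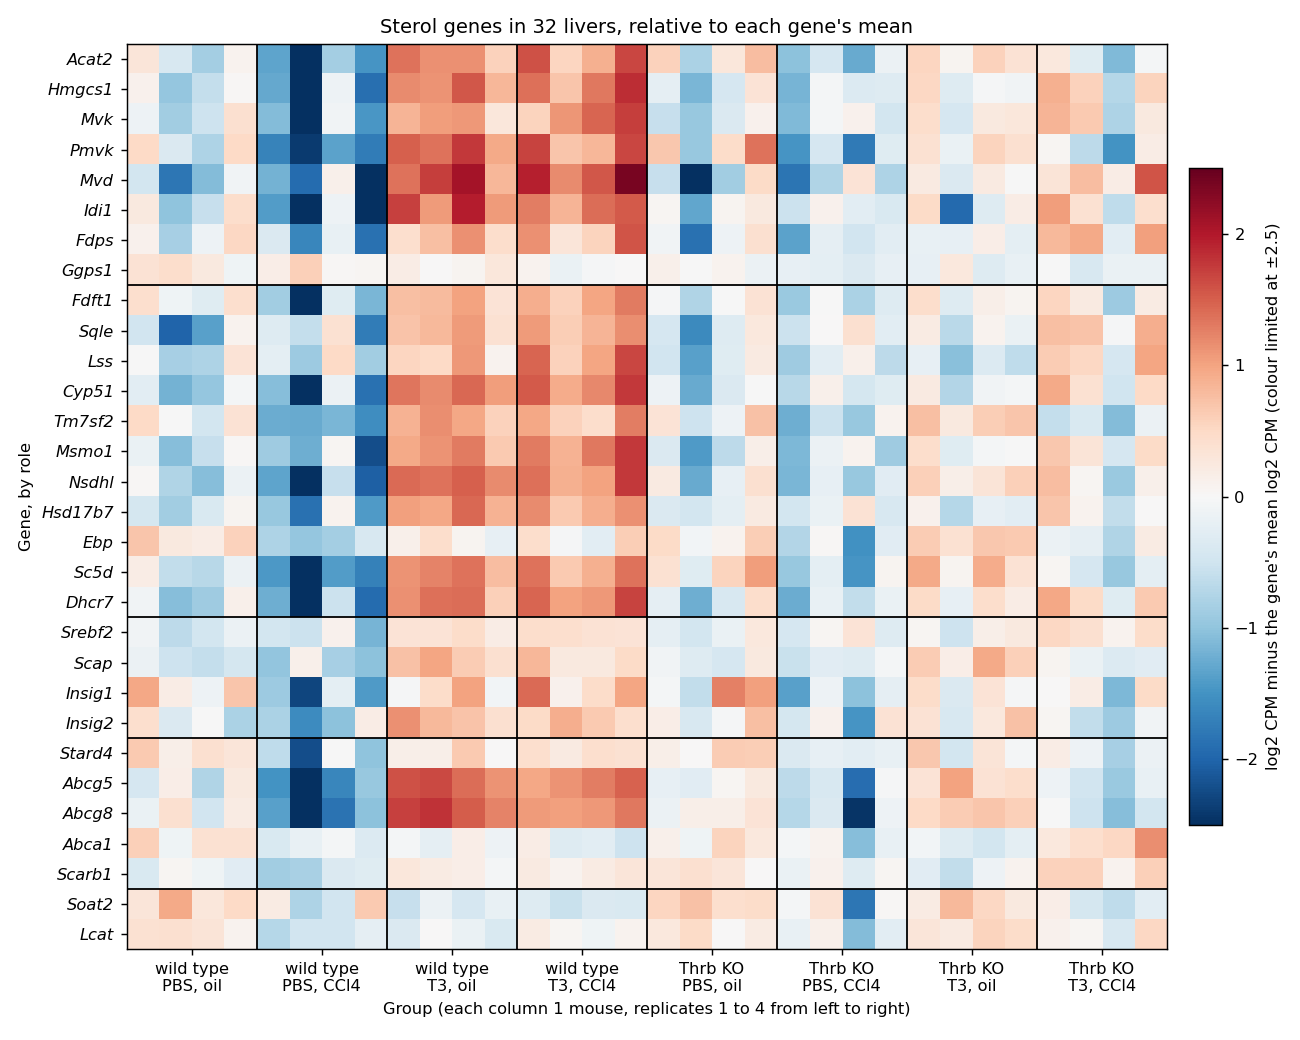
Level of 30 sterol genes (rows, grouped by role: mevalonate stage, sterol stage, sensor, transport, esterification) in 32 livers (columns, 4 mice per group), as log2 CPM minus the mean of that gene over all mice, with colours limited at ±2.5. The 8 wild-type mice given T3 are red across most enzymes, and wild-type PBS CCl4 mouse 2 is blue for most of them.

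In the mevalonate stage, 6 of 8 genes rose on oil and 7 of 8 after CCl4. Hmgcs1 encodes the synthase that joins acetyl-CoA and acetoacetyl-CoA, and was one of the most abundant enzymes of the list. In wild-type mice on oil it measured 644, 306, 392 and 603 CPM with PBS and 1348, 1301, 1735 and 1053 CPM with T3. After CCl4 it measured 244, 61.6, 547 and 162 CPM with PBS and 1541, 960.3, 1473 and 2147 CPM with T3. Every T3 mouse stood above every PBS mouse in both settings. The log2 fold change was 1.48 ± 0.43 on oil (adjusted p = 0.00800) and 2.59 ± 0.45 after CCl4 (adjusted p = 4.32e-05), or 2.80-fold and 6.03-fold.

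Acat2, the cytosolic thiolase that makes acetoacetyl-CoA for the synthase, behaved alike. Its wild-type oil mice measured 85.1, 52.5, 38.3 and 73.9 CPM with PBS and 179, 153, 154 and 103 CPM with T3. Their CCl4 counterparts measured 27.7, 10.6, 38.6 and 25.004 CPM with PBS and 208, 100.5, 128 and 220.4 CPM with T3. The groups did not overlap in either setting. Acat2 rose by 1.24 ± 0.35 on oil and 2.69 ± 0.37 after CCl4 on the log2 scale (adjusted p = 0.00702 and 1.99e-06).

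A pair of kinases and a decarboxylase turn mevalonate into an isoprene unit. Pmvk, phosphomevalonate kinase, had 99.4, 55.3, 41.3 and 100.1 CPM with PBS and 198, 181, 242 and 137 CPM with T3 on oil. After CCl4 it had 22.2, 13.4, 27.98 and 21.2 CPM with PBS and 227, 115, 125 and 226 CPM with T3. That is a rise of 1.36 ± 0.40 (log2, adjusted p = 0.00915) on oil and of 3.03 ± 0.43 after CCl4 (adjusted p = 2.70e-06), the highest log2 value of any listed gene in either setting. The PBS CCl4 mice were all below the PBS oil mice, while the T3 mice of both settings overlapped.

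Mvd, mevalonate diphosphate decarboxylase, had the largest log2 value of the list on oil and measured 29.1, 11.4, 18.7 and 37.4 CPM with PBS and 102, 131, 168 and 71.04 CPM with T3 on oil. With CCl4 the values were 17.6, 10.5, 43.2 and 5.94 CPM with PBS and 152, 89.9, 117 and 205 CPM with T3. Mvd was low and uneven without hormone and exceeded every PBS mouse in all 8 T3 mice of its own setting. The log2 rise was 2.29 ± 0.55 on oil (adjusted p = 0.00171) and 2.86 ± 0.56 after CCl4 (adjusted p = 2.06e-04).

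Mvk, mevalonate kinase, was called in both settings, at 1.04 ± 0.38 on oil (adjusted p = 0.0351) and 2.31 ± 0.40 after CCl4 (adjusted p = 4.21e-05). On oil its groups overlapped, with 22.8, 13.7, 17.3 and 32.9 CPM with PBS and 44.6, 51.1, 52.5 and 30.4 CPM with T3, because PBS mouse 4 exceeded T3 mouse 4. After CCl4 they did not, with 11.7, 4.08, 23.6 and 9.09 CPM with PBS and 36.8, 53.6, 67.9 and 82.8 CPM with T3. Idi1, the isomerase that readies the isoprene unit for coupling, rose by 1.61 ± 0.49 and 2.64 ± 0.51 (adjusted p = 0.0113 and 1.77e-04). Fdps, which couples the units into farnesyl diphosphate, was not called on oil (0.73 ± 0.39, adjusted p = 0.148) and rose after CCl4 (1.80 ± 0.40, adjusted p = 6.51e-04). Ggps1, which makes geranylgeranyl diphosphate for protein prenylation and lies off the sterol route, was the only synthesis enzyme that edgeR called in no comparison. DESeq2 called it lower in knockouts with PBS after CCl4 (-0.48, adjusted p = 0.0175). So did edgeR with library totals alone (-0.60, adjusted p = 0.0399), which also called it lower with T3 in wild type after CCl4 (-0.61, adjusted p = 0.00201). With that scaling Ggps1 was called higher after CCl4 in PBS wild type (0.39, adjusted p = 0.0369). It ranged from 10.2 to 20.2 CPM over all 32 mice, with T3 log2 values of -0.10 ± 0.14 and -0.25 ± 0.14 in wild type. Ggps1 overlaps Arid4b, which held more counts, on the opposite strand, and the strand setting of the counting is not stated. The Mvk call on oil ended without any 1 of 6 of the 8 libraries (largest adjusted p = 0.111, when wild-type PBS oil mouse 2 was omitted).

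The proximal promoters of 3 genes are shown because their T3 calls in wild type differ: Hmgcs1 and Sc5d rose in both settings, and Insig1 was called after CCl4 alone. The bases lie before the RefSeq start, 5′ to 3′ on the gene's strand, from RefSeq promoter windows on GRCm38.p6, less any base inside the gene's own GENCODE transcripts. In GENCODE vM21 on GRCm38, Hmgcs1 spans 119690379 to 119708260 of chromosome 13, Sc5d 42251595 to 42264256 of chromosome 9 and Insig1 28071363 to 28078662 of chromosome 5. Capitals mark the NF-Y box CCAAT, on either strand, and the SREBP site TCACNCCAC.
Hmgcs1, chr13:119690101-119690350, plus strand: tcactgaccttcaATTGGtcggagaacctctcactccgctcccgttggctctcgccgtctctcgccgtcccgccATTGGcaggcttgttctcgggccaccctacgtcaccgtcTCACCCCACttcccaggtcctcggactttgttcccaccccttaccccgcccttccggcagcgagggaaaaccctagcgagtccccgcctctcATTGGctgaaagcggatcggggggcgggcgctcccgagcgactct
Sc5d, chr9:42264301-42264550, minus strand: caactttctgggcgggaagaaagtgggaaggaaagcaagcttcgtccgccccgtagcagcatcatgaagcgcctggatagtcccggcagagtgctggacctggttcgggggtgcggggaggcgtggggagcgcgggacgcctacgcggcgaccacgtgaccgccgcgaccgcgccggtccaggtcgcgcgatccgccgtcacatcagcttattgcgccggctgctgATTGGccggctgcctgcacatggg
Insig1, chr5:28071162-28071362, plus strand: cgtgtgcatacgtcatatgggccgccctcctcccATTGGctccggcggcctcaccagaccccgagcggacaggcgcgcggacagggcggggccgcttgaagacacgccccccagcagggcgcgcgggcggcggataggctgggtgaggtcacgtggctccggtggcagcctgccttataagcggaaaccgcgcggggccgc

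Windows of 300 bases, 250 before and 50 after the start, were matched for 25 of the 31 genes. The NF-Y box, read on both strands, was in 22 of these 25 (88%) and in 41.1% of the 27025 genes with a window. The SREBP site was in 1 of 25, Hmgcs1, and in 1.44% of all genes. An E-box, CACGTG, was in 6 of 25 (24%) and in 8.09% of all genes. The half-site AGGTCA, which thyroid hormone receptors and several other nuclear receptors bind, was in 4 of 25 (16%) and in 18.1% of all genes. In Insig1 the half-site at 105 to 100 bases before the RefSeq start shares letters with the E-box at 101 to 96. A match gives the letters in these windows and shows no binding.

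In the sterol stage, 8 of 11 enzymes rose on oil and 11 of 11 after CCl4. Cyp51, the demethylase that acts on lanosterol, had the smallest adjusted p of the enzymes on oil. Its wild-type oil mice measured 207, 111, 128 and 242 CPM with PBS and 631, 571, 675 and 513 CPM with T3. After CCl4 the values were 119.9, 44.5, 226 and 68.2 CPM with PBS and 720.5, 478, 574 and 857 CPM with T3. All T3 mice exceeded all PBS mice of their setting. The rise was 1.80 ± 0.37 on oil (adjusted p = 3.58e-04) and 2.52 ± 0.38 after CCl4 (adjusted p = 7.50e-06). Cyp51 shares its locus with Akap9 on the opposite strand, and since the strand setting of the counting is not stated, reads could be exchanged between them.

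Sc5d, the desaturase near the end of the pathway, was among the most abundant enzymes. It measured 772, 446, 425 and 615 CPM with PBS and 1497, 1608, 1744 and 1173 CPM with T3 on oil. After CCl4 it measured 253, 100.3, 258 and 212 CPM with PBS and 1749, 1081, 1261 and 1746 CPM with T3. The lowest T3 mouse was above the highest PBS mouse in both settings. Sc5d rose 2.67-fold on oil (1.42 ± 0.33, adjusted p = 0.00107) and 7.09-fold after CCl4 (2.83 ± 0.34, adjusted p = 2.67e-07).

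Nsdhl, a sterol dehydrogenase of the step that removes methyl groups, measured 97.3, 56.2, 45.7 and 86.5 CPM with PBS and 253, 245, 268 and 217 CPM with T3 on oil. Its values after CCl4 were 38.4, 12.7, 63.6 and 23.3 CPM with PBS and 247, 176, 191 and 323 CPM with T3. Neither setting had overlapping groups. It rose by 1.78 ± 0.38 on oil (adjusted p = 5.31e-04) and 2.76 ± 0.40 after CCl4 (adjusted p = 3.62e-06).

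Hsd17b7, the ketoreductase of the same step, measured 69.7, 51.5, 72.5 and 99.2 CPM with PBS and 192, 184, 257 and 172 CPM with T3 on oil. With CCl4 it measured 49.01, 25.9, 101 and 35.6 CPM with PBS and 215, 149, 178 and 209 CPM with T3. The rises of 1.46 ± 0.31 and 1.83 ± 0.31 (adjusted p = 4.27e-04 and 3.46e-05) again came without overlap. Msmo1, the oxidase of this step, rose by 1.41 ± 0.36 and 2.19 ± 0.37 (adjusted p = 0.00306 and 3.46e-05).

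Dhcr7, the reductase that makes cholesterol itself from its immediate precursor, rose by 1.55 ± 0.40 on oil and 2.77 ± 0.41 after CCl4 (adjusted p = 0.00281 and 6.23e-06). After CCl4 its PBS mice measured 48.8, 11.8, 77.5 and 29.9 CPM and its T3 mice 311, 228, 241 and 365 CPM, with no overlap. Tm7sf2, a sterol reductase, measured 133, 94.1, 68.2 and 121 CPM with PBS and 173, 211, 184 and 141 CPM with T3 on oil, and 39.997, 39.1, 42.8 and 32.3 CPM and 185, 139.6, 127 and 227 CPM after CCl4. It rose by 0.77 ± 0.26 on oil (adjusted p = 0.0231) and by 2.14 ± 0.27 after CCl4 (adjusted p = 6.45e-07). Without hormone its 4 CCl4 mice lay close together and below all oil mice. Tm7sf2 overlaps Vps51 on the same strand. Its call on oil ended without any 1 of 3 of the 8 libraries (largest adjusted p = 0.0988, when wild-type PBS oil mouse 3 was omitted).

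The enzymes at the entry to the sterol stage gave mixed results on oil. Sqle, the epoxidase that controls flux into the stage, rose by 1.48 ± 0.39 on oil and 1.32 ± 0.39 after CCl4 (adjusted p = 0.00340 and 0.00710). Fdft1, squalene synthase, was not called on oil (0.60 ± 0.33, adjusted p = 0.163) and rose after CCl4 (1.99 ± 0.34, adjusted p = 4.25e-05). It overlaps Ctsb, a far more abundant gene, on the opposite strand. Lss, the cyclase that makes lanosterol, likewise was called only after CCl4 (0.83 ± 0.35, adjusted p = 0.0670, then 1.49 ± 0.36, adjusted p = 0.00144). Ebp, a sterol isomerase, had the sole negative value of the sterol stage on oil, -0.31 ± 0.24 (adjusted p = 0.341), and rose after CCl4 by 0.96 ± 0.25 (adjusted p = 0.00262). Its PBS mice measured 310.3, 227, 219 and 286 CPM on oil and 113, 98.3, 107 and 146 CPM after CCl4, and its T3 mice 209.6, 261, 202 and 167 CPM on oil and 260.3, 188, 161 and 295 CPM after CCl4. The T3 groups of Ebp overlapped and the PBS groups did not.

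**Figure D2:**
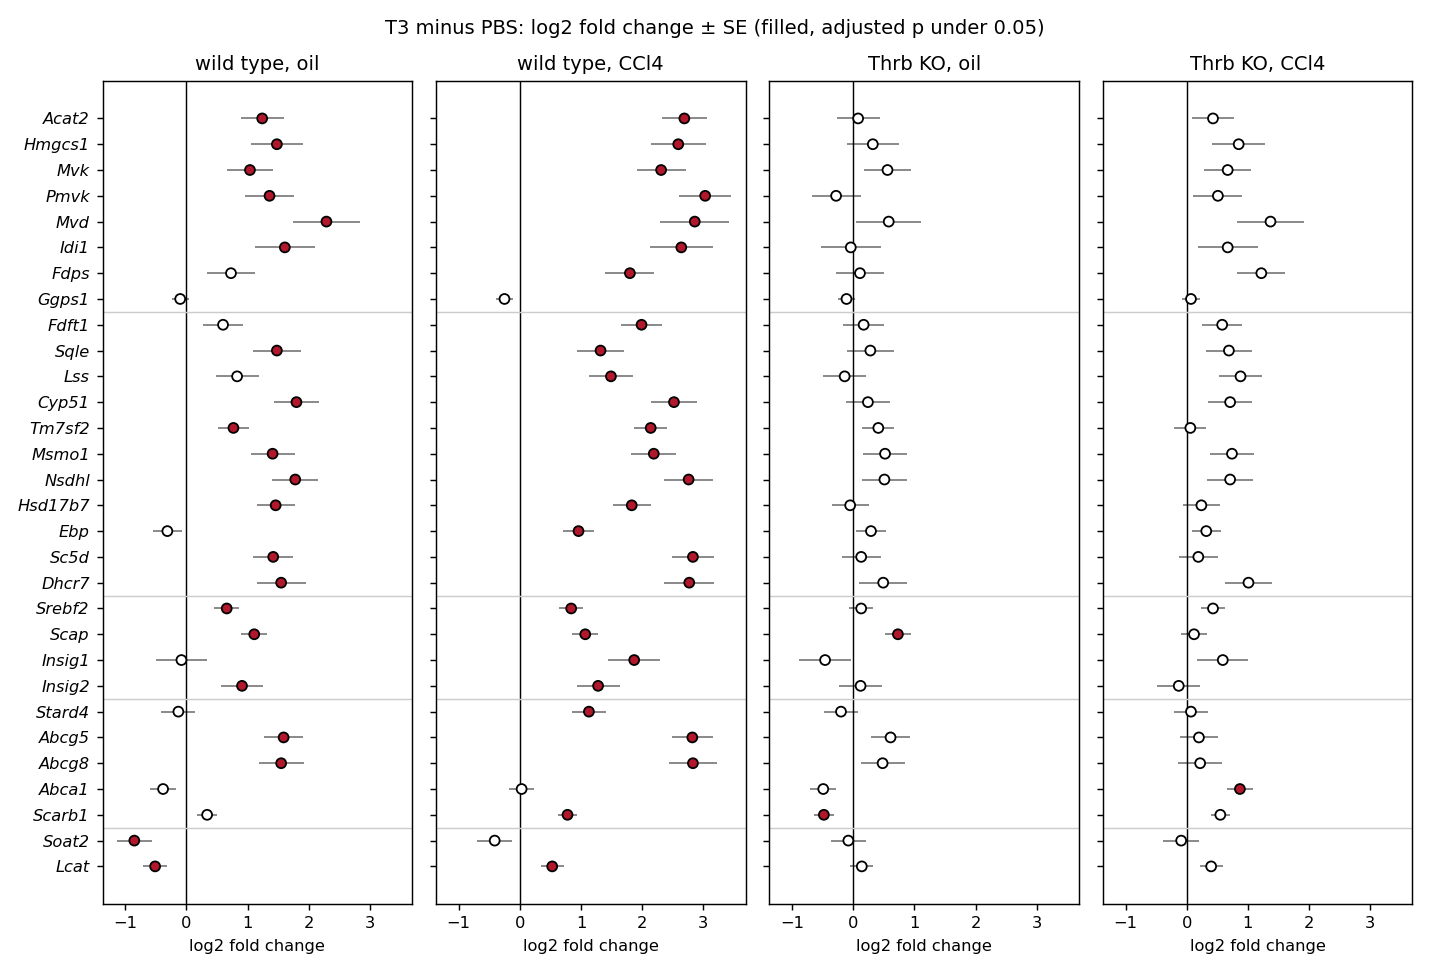
Difference between T3 and PBS mice for 30 sterol genes (rows, by role) in 4 settings (panels), as log2 fold change on the horizontal axis with SE bars, n = 4 mice against 4, and filled points at an adjusted p under 0.05. Filled points number 21 and 27 in the wild-type panels and 2 and 1 in the knockout panels.

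Of the 4 sensor genes, 3 rose on oil and 4 after CCl4. Srebf2, which encodes SREBP2, measured 74.5, 50.2, 57.4 and 71.9 CPM with PBS and 101, 101, 109 and 90.2 CPM with T3 on oil. Its CCl4 mice measured 57.3, 54.5, 85.8 and 35.3 CPM with PBS and 108, 106, 102 and 100.5 CPM with T3. All T3 mice were above the PBS mice, and the rises were 0.66 ± 0.20 (adjusted p = 0.0127) and 0.84 ± 0.20 (adjusted p = 0.00172). The call on oil ended without wild-type PBS oil mouse 2 (adjusted p = 0.0524), and that after CCl4 ended when libraries were scaled by their totals alone (0.47, adjusted p = 0.0729).

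Scap, the escort of SREBP2, measured 107, 82.5, 78.2 and 87.4 CPM with PBS and 195, 234, 184 and 155 CPM with T3 on oil, and had the smallest adjusted p of the whole list there (1.11 ± 0.21, adjusted p = 1.50e-04). With CCl4 it measured 59.2, 129, 66.5 and 58.3 CPM with PBS and 211, 139, 140.3 and 165 CPM with T3, a rise of 1.07 ± 0.21 (adjusted p = 2.46e-04). PBS CCl4 mouse 2, which was lowest of its group for most enzymes, was the highest for Scap.

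The 2 INSIG genes received different calls on oil, a difference that was not itself tested. Insig1, a classical SREBP target, measured 679, 394, 319.9 and 565 CPM with PBS and 340.5, 479, 698 and 331 CPM with T3 on oil, overlapping throughout (-0.08 ± 0.42, adjusted p = 0.899). With CCl4 it measured 185, 70.5, 293 and 129.9 CPM with PBS and 932, 375, 475 and 693 CPM with T3, with no overlap (1.87 ± 0.43, adjusted p = 0.00101). The PBS groups did not overlap between oil and CCl4, and the T3 groups did.

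Insig2, the other retention protein, measured 363, 209, 266 and 156 CPM with PBS and 592, 476, 441 and 357 CPM with T3 on oil (0.91 ± 0.35, adjusted p = 0.0429). After CCl4 it measured 156, 91.2, 133 and 306 CPM with PBS and 376, 506, 425 and 362 CPM with T3 (1.28 ± 0.35, adjusted p = 0.00459). One PBS mouse on oil, mouse 1, reached the range of the T3 mice. The call on oil ended without any 1 of 6 of the 8 libraries (largest adjusted p = 0.139, when wild-type PBS oil mouse 4 was omitted), and also with no filter on low counts (adjusted p = 0.0519).

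Sterol transport split by gene. Abcg5 and Abcg8 encode the partners of the transporter that secretes cholesterol and plant sterols into bile, and are divergent neighbours on chromosome 17. The bases between their RefSeq starts are shown because both genes rose in the same T3 comparisons. The GENCODE record of Abcg8 starts inside Abcg5 and spans this interval. They hold no NF-Y box, SREBP site, E-box or half-site on either strand, so nothing is in capitals, while the longer 300-base windows of both genes do hold an NF-Y box.
Abcg5-Abcg8 interval, chr17:84683012-84683120, plus strand, reading towards Abcg8: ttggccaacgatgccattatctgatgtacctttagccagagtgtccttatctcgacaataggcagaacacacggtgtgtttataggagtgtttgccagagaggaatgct

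On oil Abcg5 measured 84.5, 128, 67.5 and 134 CPM with PBS and 342, 355, 299 and 247 CPM with T3 in wild type. Its CCl4 mice measured 40.1, 14.6, 36.5 and 58.9 CPM with PBS and 222, 247, 276 and 317 CPM with T3. Its partner Abcg8 measured 119.8, 176, 96.3 and 153 CPM and 434, 465, 382 and 315 CPM on oil, and 51.9, 10.3, 37.3 and 65.2 CPM and 278, 272, 285 and 334 CPM after CCl4. Neither gene had a T3 mouse within the PBS range. Abcg5 rose by 1.59 ± 0.32 on oil (adjusted p = 2.71e-04) and by 2.82 ± 0.34 after CCl4 (adjusted p = 2.08e-07), the smallest adjusted p of the list in that setting. Abcg8 rose by 1.55 ± 0.37 (adjusted p = 0.00148) and 2.83 ± 0.39 (adjusted p = 1.73e-06). The annotated spans of Abcg8 and Abcg5 overlap on opposite strands, so without a stated strand setting their counts are not fully separate.

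Stard4, a carrier of cholesterol through the cytosol, was not called on oil (-0.13 ± 0.28, adjusted p = 0.758) and rose after CCl4, from 71.3, 23.7, 110.2 and 55.2 CPM to 149, 129.5, 149 and 144 CPM (1.13 ± 0.28, adjusted p = 0.00213). Scarb1, the receptor that takes up cholesterol from high-density lipoprotein, measured 169, 228, 206 and 181 CPM with PBS and 271, 257, 249.8 and 213 CPM with T3 on oil (0.34 ± 0.16, adjusted p = 0.0937). After CCl4 it measured 121, 126, 173 and 180.2 CPM with PBS and 260.4, 237, 257 and 275 CPM with T3 (0.78 ± 0.16, adjusted p = 2.58e-04). The latter groups did not overlap. Abca1, which loads cholesterol onto apolipoprotein A-I and is induced when sterols are plentiful, was called in neither setting (-0.38 ± 0.21 and 0.03 ± 0.21, adjusted p = 0.159 and 0.915).

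The 2 esterification genes were the only listed genes that fell with T3 on oil. Soat2, the acyltransferase that makes cholesteryl esters in hepatocytes, measured 92.3, 145, 90.7 and 105 CPM with PBS and 50.4, 67.5, 56.2 and 65.6 CPM with T3. That is a log2 fold change of -0.85 ± 0.29 (adjusted p = 0.0238) with no overlap. After CCl4 it was not called (-0.41 ± 0.29, adjusted p = 0.271). It was called lower there with library totals alone (-0.76, adjusted p = 0.0203) and without both distant libraries (-0.59, adjusted p = 0.0240). Lcat, which esterifies cholesterol in plasma, measured 490.4, 503, 473 and 401 CPM with PBS and 295, 381, 339 and 292 CPM with T3 on oil (-0.51 ± 0.19, adjusted p = 0.0327). After CCl4 the direction was the opposite, with 230.0, 273, 271 and 324 CPM with PBS and 436, 392, 354 and 405 CPM with T3 (0.53 ± 0.19, adjusted p = 0.0240). The Soat2 call on oil ended without any 1 of 3 of the 8 libraries (largest adjusted p = 0.101, when wild-type PBS oil mouse 2 was omitted), and the Lcat calls ended on oil without any 1 of 6 of the 8 libraries (largest adjusted p = 0.0904, when wild-type T3 oil mouse 4 was omitted) and after CCl4 without wild-type PBS CCl4 mouse 1 (adjusted p = 0.0779) or without wild-type T3 CCl4 mouse 1 (adjusted p = 0.0568). The Lcat call on oil also ended with no filter on low counts (adjusted p = 0.0594), and that after CCl4 ended with library totals alone (0.18, adjusted p = 0.291).

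In knockouts on oil, 1 of the 30 tested genes rose and 1 fell with T3, where 18.7% of all tested genes were called in either direction. After CCl4, 1 of the 30 rose, where 2.54% of all tested genes were called, a share close to that of the listed genes. None of the 19 synthesis enzymes was called by edgeR in either setting with all libraries fitted. On oil none reached an unadjusted p under 0.05 and DESeq2 called none. After CCl4 that number was 5, all higher with T3, and DESeq2 called 1, Fdps. The share of all tested genes under that unadjusted threshold is not reported here. The median log2 fold change of the listed genes was 0.14 on oil and 0.53 after CCl4, against 0.01 and -0.03 over all genes, with 28 of 30 values positive after CCl4. Hmgcs1 measured 511, 269.6, 443 and 756 CPM with PBS and 854, 476, 580.1 and 556 CPM with T3 on oil, and 267, 574, 466 and 475 CPM and 1100.1, 881, 363 and 874 CPM after CCl4. Its groups overlapped in both settings, with log2 values of 0.32 ± 0.42 and 0.85 ± 0.43 (adjusted p = 0.663 and 0.331). Mvd and Fdps had the largest values of the enzymes after CCl4, 1.37 ± 0.54 and 1.22 ± 0.39, which did not pass (adjusted p = 0.184 and 0.0910). Without both distant libraries edgeR called Mvd higher there (1.86, adjusted p = 0.0452). On oil Abcg5 and Abcg8 did not overlap between T3 and PBS knockouts, yet did not pass either (0.61 ± 0.32 and 0.48 ± 0.36, adjusted p = 0.190 and 0.400). With only the groups compared edgeR called both higher (adjusted p = 0.0291 and 0.0215). Without both distant libraries it called Abcg5 (adjusted p = 0.0411).

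The 3 genes called in knockouts were Scap, Scarb1 and Abca1. Scap rose on oil, from 111, 93.7, 88.5 and 140.3 CPM to 184, 133, 226 and 177 CPM (0.73 ± 0.21, adjusted p = 0.0157), with knockout T3 mouse 2 inside the PBS range. Scarb1 fell on oil, from 273, 294, 274 and 222 CPM to 181, 144, 204 and 236 CPM (-0.48 ± 0.16, adjusted p = 0.0325), also with overlap. Abca1 rose after CCl4, from 176, 193, 86.8 and 159 CPM to 216, 242, 258 and 406 CPM (0.87 ± 0.21, adjusted p = 0.0211), without overlap. Scap was lost without any 1 of 3 of the 8 libraries (largest adjusted p = 0.0784, when knockout T3 oil mouse 3 was omitted), Scarb1 without any 1 of 5 of the 8 libraries (largest adjusted p = 0.115, when knockout T3 oil mouse 2 was omitted) and Abca1 without knockout T3 CCl4 mouse 4 (adjusted p = 0.135) or without knockout PBS CCl4 mouse 4 (adjusted p = 0.0515). The count on oil fell to 0 without knockout PBS oil mouse 2 or 3, to 1 without PBS oil mouse 1 or T3 oil mouse 1, 2 or 3, and was 4 without both distant libraries. The count after CCl4 fell to 0 without PBS CCl4 mouse 4 or T3 CCl4 mouse 4 and was 2 without T3 CCl4 mouse 3.

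The difference between genotypes was tested directly as the T3 response of knockouts minus that of wild type. After CCl4, 17 of the 30 genes had a lower T3 log2 fold change in knockouts than in wild type and 1, Abca1, a higher one, where 12.4% and 10.3% of all tested genes did. The 17 comprised 13 of the 19 enzymes with Scap, Insig2, Abcg5 and Abcg8. Sc5d had the largest difference, -2.63 ± 0.46 (adjusted p = 1.62e-04): its knockouts measured 353, 574, 245 and 713 CPM with PBS and 708, 508, 356 and 579.5 CPM with T3, beside the wild-type rise given above. Knockouts measured 72.5, 86.3, 30.3 and 112 CPM for Abcg5 with PBS and 104, 81.3, 60.04 and 99.4 CPM with T3, and the responses differed by -2.62 ± 0.45 (adjusted p = 1.40e-04). For Pmvk the knockout values were 25.4, 53.2, 20.8 and 57.1 CPM and 72.7, 45.2, 25.1 and 80.01 CPM, and the difference was -2.52 ± 0.57 (adjusted p = 0.00201). In these 3 genes the T3 and PBS mice of the knockout overlapped. Each difference also includes any gap between the genotypes with PBS, and Sc5d was itself called higher in PBS CCl4 knockouts, as given below.

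Acat2 (-2.26 ± 0.50, adjusted p = 0.00167), Abcg8 (-2.61 ± 0.52, adjusted p = 6.49e-04), Tm7sf2 (-2.08 ± 0.38, adjusted p = 2.29e-04) and Nsdhl (-2.06 ± 0.53, adjusted p = 0.00597) also differed by more than 2 on the log2 scale. Hsd17b7, Cyp51 and Dhcr7 differed by -1.59, -1.81 and -1.75. Abca1 was the exception, at 0.84 ± 0.30 (adjusted p = 0.0398). Of the hepatocyte markers, 5 of 6 had a smaller response in knockouts in this comparison, and their part was not tested. Of the 18 calls, 9 did not survive every omission of 1 library: Insig2, Abca1, Fdft1, Msmo1, Scap, Mvk, Idi1, Dhcr7 and Hmgcs1. The count was 11 without wild-type PBS CCl4 mouse 2 or knockout T3 CCl4 mouse 3, 11 with library totals alone, and 9 when only the 4 groups compared were fitted.

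On oil, 3 of the 30 genes had a lower T3 log2 fold change in knockouts than in wild type. Of all tested genes 6.64% did, a share near that of the listed genes. The 3 were Scarb1 (-0.81 ± 0.22, adjusted p = 0.0150), Hsd17b7 (-1.51 ± 0.43, adjusted p = 0.0198) and Cyp51 (-1.55 ± 0.51, adjusted p = 0.0458). Scarb1 fell with T3 in knockouts and was not called in wild type. Hsd17b7 and Cyp51 rose in wild type and were not called in knockouts. For Hsd17b7 the knockout oil mice measured 73.7, 68.5, 79.4 and 110.5 CPM with PBS and 102, 57.8, 82.2 and 79.2 CPM with T3. Those for Cyp51 measured 229, 104, 194 and 249 CPM and 293, 150.5, 235 and 241 CPM. Wild-type T3 mice lay above every one of these knockouts for both genes. Mvd had the largest difference without a call (-1.71 ± 0.76, adjusted p = 0.145). The Cyp51 call ended without any 1 of 12 of the 16 libraries (largest adjusted p = 0.101, when wild-type PBS oil mouse 2 was omitted). The count was 5 without wild-type PBS oil mouse 1 or 4 or knockout PBS oil mouse 2, and 5 with DESeq2. It was 9 without both distant libraries (7 lower, 2 higher), and 11 when only the 4 groups compared were fitted (9 lower, 2 higher). The higher genes were Lcat and Soat2 in both of these fits. Neither distant library is in the oil groups, but both enter the shared fit of all groups. With only the groups compared, the count after CCl4 was 9, so which setting had more calls depended on the fit.

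Knockouts were also set beside wild type under each treatment. With PBS on oil, edgeR and DESeq2 called none of the 30 genes, where 0.538% of all tested genes were called in either direction, and 2 reached an unadjusted p under 0.05. With PBS after CCl4, 1 was called, where 2.25% of all tested genes were. It was Sc5d, at 253, 100.3, 258 and 212 CPM in wild type and 353, 574, 245 and 713 CPM in knockouts, overlapping at knockout mouse 3 (1.20 ± 0.32, adjusted p = 0.0464). This call ended without any 1 of 4 of the 8 libraries (largest adjusted p = 0.232, when wild-type PBS CCl4 mouse 2 was omitted). That count was 0 without wild-type mouse 1 or 2 or knockout mouse 2 or 4, 6 without wild-type mouse 3, 5 without wild-type mouse 4, 4 without knockout mouse 3, and 4 by DESeq2. At an unadjusted p under 0.05 there were 13 of 30, 12 of them higher in knockouts. The shares of all tested genes under that unadjusted threshold are not reported here, so these unadjusted counts have no background beside them. With library totals alone Sc5d was not called (adjusted p = 0.0559) and 1 gene was, Ggps1, lower in knockouts.

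With T3 on oil, 4 genes were lower and 1 higher in knockouts. Of all tested genes 9.21% and 7.14% were, shares near those of the listed genes. The lower ones were Hsd17b7 (-1.32 ± 0.31, adjusted p = 0.00317), Cyp51 (-1.38 ± 0.37, adjusted p = 0.00980), Idi1 (-1.66 ± 0.49, adjusted p = 0.0202) and Lss (-1.12 ± 0.35, adjusted p = 0.0291). Lcat was the higher one (0.61 ± 0.19, adjusted p = 0.0252). The 2 genotypes did not overlap for any of these 5, which were picked by their calls. The share of all tested genes without overlap is not reported here. The hepatocyte markers summed to 72178 to 102962 CPM in wild type and 125399.9 to 167862 CPM in knockouts, also without overlap, with 1 of 6 called higher in knockouts, Alb, and their part was not tested. Lss measured 210.2, 204, 305 and 154 CPM in wild type and 125, 70.3, 114 and 93.4 CPM in knockouts. Idi1 measured 72.9, 46.98, 87.3 and 46.98 CPM in wild type and 31.4, 5.80, 17.8 and 25.3 CPM in knockouts, where mouse 2 was lowest. Lss was lost without any 1 of 4 of the 8 libraries (largest adjusted p = 0.114, when wild-type T3 oil mouse 3 was omitted), Idi1 without any 1 of 4 of the 8 libraries (largest adjusted p = 0.0806, when knockout T3 oil mouse 2 was omitted) and Lcat without any 1 of 4 of the 8 libraries (largest adjusted p = 0.0815, when wild-type T3 oil mouse 1 was omitted). The count of 5 was 2 without wild-type T3 oil mouse 1 and 3 without wild-type mouse 3 or knockout mouse 3. It was 11 with DESeq2 (10 lower), 13 with library totals alone (12 lower), 14 without both distant libraries, and 20 when only these 2 groups were fitted. Neither distant library is in these 2 groups, but both enter the shared fit of all groups.

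With T3 after CCl4, 11 genes were lower and 1 higher in knockouts, where 12.5% and 10.4% of all tested genes were. Tm7sf2 had 185, 139.6, 127 and 227 CPM in wild type and 62.5, 72.1, 44.5 and 85.3 CPM in knockouts (-1.36 ± 0.27, adjusted p = 4.91e-04). Abcg5, with 104, 81.3, 60.04 and 99.4 CPM in knockouts, differed by -1.62 ± 0.32 (adjusted p = 5.41e-04), and Abcg8 by -1.59 ± 0.37 (adjusted p = 0.00230). Pmvk, Acat2 and Sc5d differed by -1.64, -1.46 and -1.44 (adjusted p = 0.00387, 0.00341 and 0.00186). Abca1 was the higher gene, at 205, 144, 151 and 127 CPM in wild type and 216, 242, 258 and 406 CPM in knockouts (0.84 ± 0.21, adjusted p = 0.00411), without overlap. Of the hepatocyte markers, 3 of 6 were lower in knockouts here, though the summed levels overlapped, at 76401 to 110632 CPM in wild type and 87473 to 113033 CPM in knockouts. Of the Kupffer cell markers 4 of 6 were lower too. Of the cholangiocyte markers 4 of 6 were higher in knockouts, with sums of 26.6 to 38.8 CPM in wild type and 55.9 to 82.3 CPM in knockouts. The part of these markers was not tested. Calls for Insig2, Hsd17b7, Nsdhl, Msmo1 and Scap did not hold in every omission, and the count was 7 without knockout mouse 2, 3 or 4. With library totals alone 8 genes were lower and 2 higher.

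**Figure D3:**
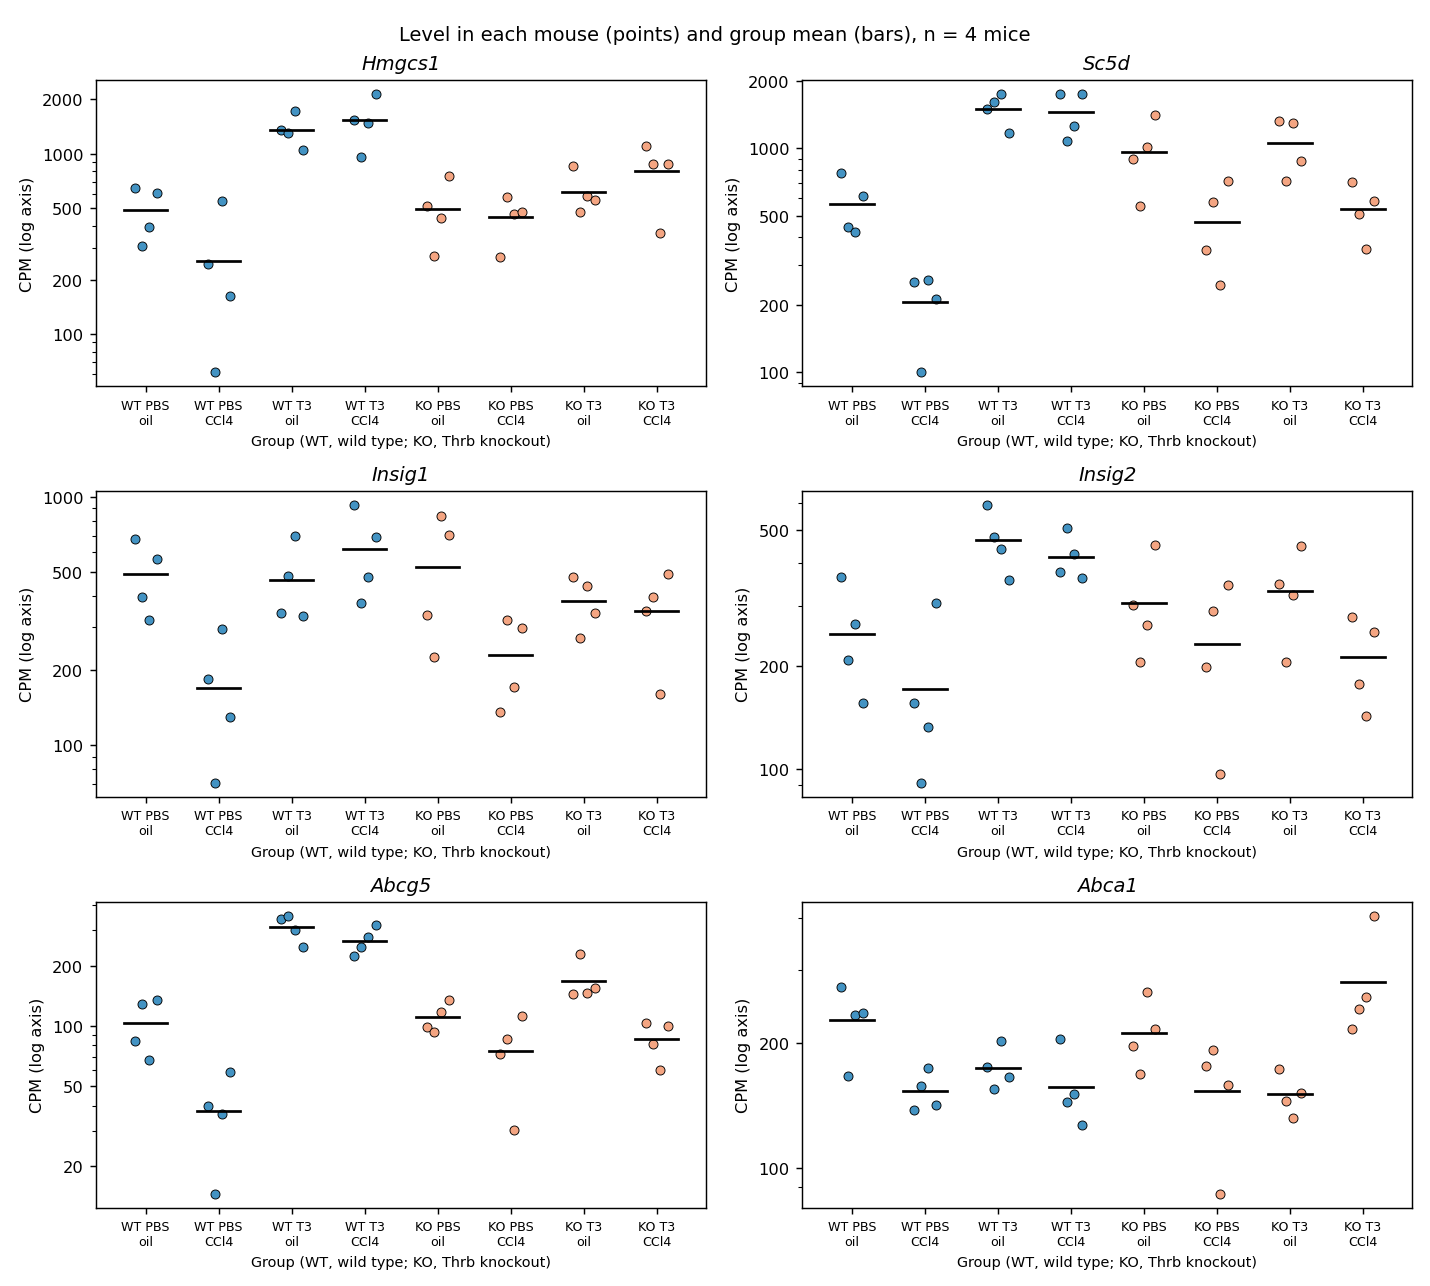
CPM on a log axis for Hmgcs1, Sc5d, Insig1, Insig2, Abcg5 and Abca1 in each of the 8 groups, with 1 point per mouse and a bar at the group mean (n = 4). Wild-type T3 mice form the highest groups for Hmgcs1, Sc5d and Abcg5, and knockout T3 CCl4 mice the highest for Abca1.

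CCl4 lowered many of these genes in hypothyroid wild-type mice. Of the 30 genes, 16 fell and none rose, where 21.6% of all tested genes fell, and the median log2 fold change was -0.82 against 0.04 over all genes. The fall touched 9 of 19 enzymes, Insig1, all 5 tested transport genes and Lcat. Pmvk changed most (-1.80 ± 0.41, adjusted p = 8.31e-04). Its oil mice ranged from 41.3 to 100.1 CPM and its CCl4 mice from 13.4 to 27.98 CPM. Tm7sf2 had the smallest adjusted p (-1.43 ± 0.27, adjusted p = 1.32e-04), and Ebp (-1.17 ± 0.25, adjusted p = 4.39e-04) and Sc5d (-1.46 ± 0.33, adjusted p = 7.29e-04) also fell. Abcg5 and Abcg8 fell too, at -1.46 ± 0.32 and -1.73 ± 0.37 (adjusted p = 6.11e-04 and 5.03e-04). No PBS CCl4 mouse reached the PBS oil range in these 6 genes. Of the 16 genes that fell, 15 rose with T3 after CCl4, and the other was Abca1. Both comparisons use the same PBS CCl4 mice, so an overlap is built in, and 27 of the 30 genes rose in the second. The share of all tested genes with both calls is not reported here. Sqle had the only positive value, 0.34 ± 0.38 (adjusted p = 0.482).

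Other markers moved with this comparison. All 6 hepatocyte markers fell, from 115155 to 164363 CPM summed to 45146 to 65824 CPM, and all 6 monocyte-derived macrophage markers rose, from 58.5 to 176 CPM to 178 to 389.9 CPM. Their part in the fall of the sterol genes was not tested. Scaling by library totals moved the median of all genes by 0.40 here, and Scarb1 then stood at 0.01 (adjusted p = 0.978) in place of -0.39 ± 0.16 (adjusted p = 0.0445). That scaling gave 12 edgeR calls, 11 lower and 1 higher, Ggps1 (0.39, adjusted p = 0.0369). With only the groups compared there were 11 calls, all lower. Calls for Nsdhl, Dhcr7 and Idi1 ended without any 1 of 4 of the 8 libraries (largest adjusted p = 0.104, when wild-type PBS CCl4 mouse 2 was omitted), without any 1 of 4 of the 8 libraries (largest adjusted p = 0.121, when wild-type PBS CCl4 mouse 2 was omitted) and without any 1 of 5 of the 8 libraries (largest adjusted p = 0.146, when wild-type PBS CCl4 mouse 2 was omitted) respectively. Those for Abca1 and Scarb1 ended without any 1 of 3 of the 8 libraries (largest adjusted p = 0.0911, when wild-type PBS oil mouse 1 was omitted) and without any 1 of 4 of the 8 libraries (largest adjusted p = 0.149, when wild-type PBS CCl4 mouse 1 was omitted).

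With T3, CCl4 was called for none of the 30 genes in wild type, by edgeR or DESeq2. Of all tested genes 3.40% were called, so an empty count among 30 genes is close to the share of all genes. None of the 30 reached an unadjusted p under 0.05, and the share of all tested genes that did is not reported here. The log2 values ran from -0.45 to 0.63. Hepatocyte markers gave no call here either, 0 of 6. Pmvk had 198, 181, 242 and 137 CPM on oil and 227, 115, 125 and 226 CPM after CCl4 with T3, with overlap (-0.13 ± 0.39, adjusted p = 0.940).

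In hypothyroid knockouts 7 of the 30 genes fell after CCl4 and none rose, where 13.4% of all tested genes fell. They were Pmvk (-1.45 ± 0.40, adjusted p = 0.00852), Ebp (-0.82 ± 0.25, adjusted p = 0.0134), Sc5d (-1.04 ± 0.32, adjusted p = 0.0168), Lcat, Tm7sf2, Insig1 and Acat2. All 7 had also fallen in wild type. Pmvk measured 113, 36.8, 97.8 and 181 CPM on oil and 25.4, 53.2, 20.8 and 57.1 CPM after CCl4, and the groups overlapped at oil mouse 2. Hepatocyte markers fell in 5 of 6 cases, from 121728 to 141532 CPM summed to 52347 to 110278 CPM. Macrophage markers rose in 5 of 6 cases, from 70.1 to 101 CPM summed to 145 to 252 CPM, cholangiocyte markers in 4, from 30.5 to 41.9 to 49.1 to 58.5 CPM, and stellate cell markers in 4, from 105 to 124 to 142 to 226 CPM. Of the sinusoidal endothelium markers 3 fell and 1 rose, with sums of 303 to 345 and 223 to 268 CPM. The part of these markers was not tested. No call survived every omission. The count was 1 without knockout PBS CCl4 mouse 3 or PBS oil mouse 4, 3 without CCl4 mouse 1, 4 without oil mouse 1, 3 with library totals alone, 2 without both distant libraries, and 1 when only these 2 groups were fitted.

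In knockouts given T3, 7 of the 30 genes fell after CCl4 and 3 rose, where 19.8% of all tested genes fell and 19.7% rose, so that the share that fell was close to that of all genes and the share that rose was below it. Tm7sf2 fell from 159, 111, 144 and 153 CPM to 62.5, 72.1, 44.5 and 85.3 CPM (-1.10 ± 0.27, adjusted p = 0.00188) and Scap from 184, 133, 226 and 177 CPM to 123, 105, 93.4 and 96.5 CPM (-0.79 ± 0.21, adjusted p = 0.00465). Neither had overlapping groups. Ebp, Sc5d, Abcg5, Abcg8 and Soat2 fell by 0.73 to 1.07 on the log2 scale. Abca1 rose from 173, 145, 132 and 152 CPM to 216, 242, 258 and 406 CPM (0.90 ± 0.21, adjusted p = 0.00146), with mouse 4 highest and no overlap. Scarb1 rose from 181, 144, 204 and 236 CPM to 331, 330.3, 236 and 336 CPM (0.69 ± 0.16, adjusted p = 0.00116), where CCl4 mouse 3 equalled the highest oil mouse. Both genes had fallen after CCl4 in hypothyroid wild-type mice. Lss was the only enzyme that rose, with overlap, from 125, 70.3, 114 and 93.4 CPM to 225, 207, 108 and 285 CPM (1.03 ± 0.35, adjusted p = 0.0211), against 3 enzymes of its stage that fell. Hepatocyte markers fell in 4 of 6 cases, Kupffer cell markers also in 4 of 6, and macrophage markers rose in 4 of 6, whose part was not tested. The Lss call ended without knockout T3 CCl4 mouse 4 (adjusted p = 0.0809) or without knockout T3 oil mouse 2 (adjusted p = 0.0738). Those for Soat2, Abcg8, Ebp, Sc5d and Abcg5 ended without knockout T3 CCl4 mouse 3 (adjusted p of 0.139, 0.0776, 0.0599, 0.0734 and 0.0676 in that order), which left 6 calls. Soat2 was lost without 7 of the 8 libraries, Sc5d also without T3 oil mouse 1 or 3, and Abcg5 also without T3 oil mouse 2.

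**Figure D4:**
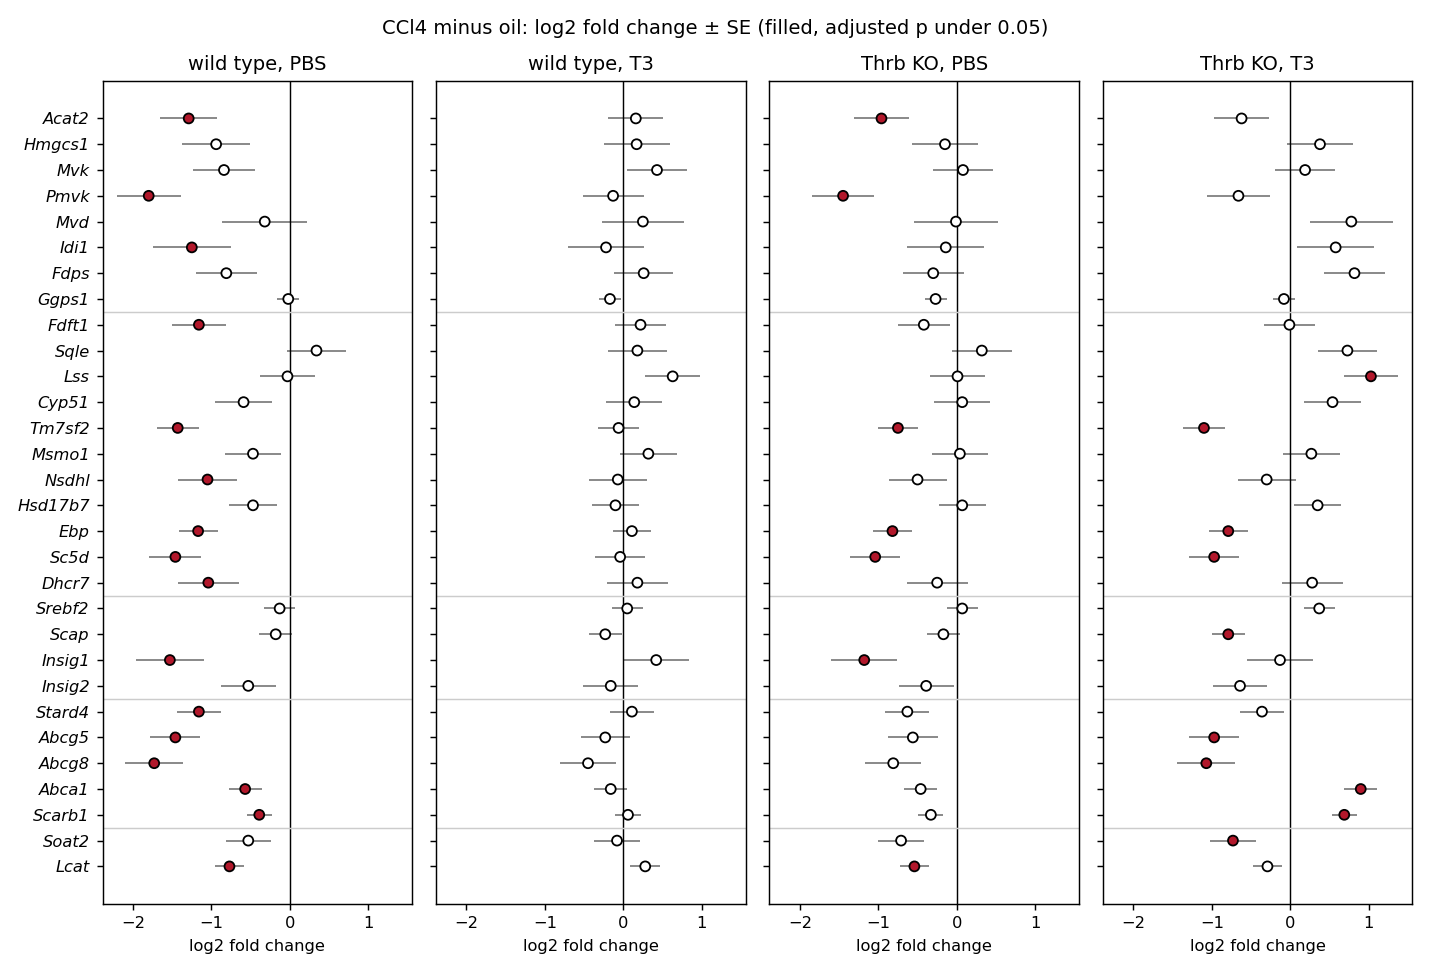
Difference between CCl4 and oil mice for 30 sterol genes (rows, by role) in 4 settings (panels), as log2 fold change on the horizontal axis with SE bars, n = 4 mice against 4, and filled points at an adjusted p under 0.05. The panels hold 16, 0, 7 and 10 filled points from left to right.

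The dependence of the T3 response on injury was tested within each genotype. In wild type, 10 of the 30 genes had a higher T3 log2 fold change after CCl4 than on oil and none a lower one, where 10.8% of all tested genes had a higher one. Insig1 had the largest difference (1.95 ± 0.60, adjusted p = 0.0189), followed by Pmvk (1.67 ± 0.56, adjusted p = 0.0315). Lcat (1.05 ± 0.26, adjusted p = 0.00628), Ebp (1.27 ± 0.35, adjusted p = 0.00995), Tm7sf2 (1.37 ± 0.37, adjusted p = 0.0101) and Stard4 (1.26 ± 0.40, adjusted p = 0.0225) came with smaller ones. Acat2, Sc5d, Fdft1 and Abcg5 made up the rest, at 1.23 to 1.45. For Insig1, Ebp, Stard4 and Fdft1, T3 against PBS on oil was not called. Lcat fell with T3 on oil and rose after CCl4. The hepatocyte markers gave a higher T3 log2 fold change after CCl4 in 5 of 6 cases, and their part was not tested. Calls that survived every omission were Lcat, Ebp, Tm7sf2 and Insig1. The count was 4 without wild-type T3 oil mouse 4, 5 without PBS CCl4 mouse 2 or T3 CCl4 mouse 4, 6 without PBS oil mouse 1 or 4, and 5 with library totals alone, which move the median of all genes by -0.48. Of those 5, 4 had a higher value after CCl4 and 1 a lower one, Ggps1 (-0.65, adjusted p = 0.0220), where 13.1% of all tested genes had a lower one with the trimmed-mean scaling.

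In knockouts 2 of the 30 genes had a higher T3 log2 fold change after CCl4 than on oil, where 1.15% of all tested genes did. Scarb1 fell with T3 on oil, and Abca1 rose with T3 after CCl4. Abca1 differed by 1.36 ± 0.30 (adjusted p = 0.00756) and Scarb1 by 1.02 ± 0.22 (adjusted p = 0.00720), and both calls held in every omission of 1 library. On oil Abca1 had stood at 197, 169, 265 and 216 CPM with PBS and 173, 145, 132 and 152 CPM with T3, which was not called (-0.49 ± 0.21, adjusted p = 0.101). The edgeR fits of only the groups compared and without both distant libraries called it lower (adjusted p = 0.0397 and 0.0445). Of the enzymes edgeR and DESeq2 called none, and 1 reached an unadjusted p under 0.05.

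Single mice were lowest or highest of their group for many enzymes at once. In the wild-type PBS CCl4 group, mouse 2 was the lowest of 4 for 13 of 19 enzymes and mouse 3 the highest for 17 of 19. Hmgcs1 shows the span, with 61.6 CPM in mouse 2 and 547 CPM in mouse 3. Among the knockout PBS oil mice, mouse 2 was lowest for 18 and mouse 4 highest for 18 of 19. In the knockout T3 CCl4 group, mouse 3 was lowest for 18 of 19. The median coefficient of variation of the enzymes was 55.5% in wild-type PBS CCl4 mice, 19.7% in wild-type T3 oil mice and 20.9% in knockout T3 oil mice, with the other groups between 26.8% and 39.2%.

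Per kilobase of exon, levels could be compared between genes. In wild-type PBS oil mice Lcat was the most abundant listed gene, at 348 ± 33.9 CPM per kb (SD, n = 4), ahead of Insig1 at 158 ± 52.6. Sc5d at 116 ± 33.5, Ebp at 113 ± 19.3 and Hmgcs1 at 106 ± 35.6 lay within 1 SD of each other. Ggps1, Fdps and Idi1 were the lowest enzymes, at 3.37 ± 0.529, 4.77 ± 1.71 and 5.93 ± 2.61.

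Further genes of sterol biology were taken from 3 lists. Among regulators beyond the listed sensor genes, Nr1h3, the oxysterol receptor LXR alpha, rose with T3 in wild type after CCl4 (0.89 ± 0.17, adjusted p = 1.36e-04), and Mbtps2, a protease that cuts SREBPs, fell (-0.50 ± 0.14, adjusted p = 0.00455). Nr1h3 measured 68.7, 32.9, 66.5 and 87.6 CPM with PBS and 107, 129.6, 128 and 109.5 CPM with T3, without overlap. On oil neither was called, and the unadjusted p of Mbtps2 was 0.0916. Of 12 genes that carry or store sterols, 7 rose with T3 in wild type on oil, where 19.0% of all tested genes rose. After CCl4 4 rose and 1 fell, where 20.0% of all tested genes rose and 21.7% fell.

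Gramd1c, a carrier of cholesterol between membranes, led both comparisons, with 29.2, 25.3, 32.2 and 34.3 CPM with PBS and 121, 131, 121 and 110.0 CPM with T3 on oil (3.99-fold higher, adjusted p = 6.01e-06). After CCl4 it had 15.1, 6.23, 13.4 and 36.1 CPM with PBS and 122, 137, 133 and 131 CPM with T3 (2.88 ± 0.31, adjusted p = 4.49e-08). Its response was smaller in knockouts in both settings (-1.23 ± 0.41 and -2.20 ± 0.42, adjusted p = 0.0491 and 4.06e-04). After CCl4 Npc2, which hands cholesterol out of lysosomes, rose by 0.76 ± 0.12 and its partner Npc1 changed by -0.90 ± 0.21 (adjusted p = 1.22e-05 and 0.00122). Soat1, the acyltransferase prominent in macrophages, rose with T3 on oil in both genotypes, from 5.06, 5.65, 4.84 and 4.34 to 10.995, 9.41, 9.66 and 15.5 CPM in wild type and from 3.86, 3.64, 4.31 and 3.37 to 8.93, 8.70, 12.1 and 8.55 CPM in knockouts (1.20 ± 0.20 and 1.33 ± 0.21, adjusted p = 3.04e-05 and 3.40e-05). It went the opposite way to its relative Soat2 in wild type, and the Kupffer cell markers rose with it in both genotypes, whose part was not tested. Abcg1, a sterol exporter of macrophages, rose by 0.79 ± 0.22 and 1.15 ± 0.22 in the same comparisons (adjusted p = 0.00547 and 5.34e-04). Of 8 genes that use isoprenoids for other ends, 1 fell with T3 on oil in wild type, Dhdds (-0.63 ± 0.24, adjusted p = 0.0399), where 16.2% of all tested genes fell. After CCl4 2 rose, Pdss2 and Coq2 of ubiquinone synthesis, and 1 fell, Fnta of protein farnesylation (0.73, 0.30 and -0.30), where 20.0% rose and 21.7% fell. These shares are close to those of all genes.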

How the data were processed

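The values are raw counts per gene as the authors deposited them, in 1 table. The tools named in the submitters' processing notes are STAR 2.7.9a, cutadapt, Trim Galore and FastQC 0.11.5, with the build GRCm38. How reads were counted, on which strand and against which annotation was not stated in the sources used, and the labels' protocols name a stranded and an unstranded kit without assigning either to a library. Symbols came from GENCODE vM21 (52489 of 52636 identifiers matched, the remainder holding at most 0.00558% of a library's counts).

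Genes were filtered with filterByExpr (minimum count 10, minimum total 15), scaled by TMM, and fitted over all 8 label-defined groups with edgeR 4.0.16 in R 4.3.3, which gave 16 comparisons with Benjamini-Hochberg adjustment. Depth was 16985162 to 26118055 counts per library. Replicate numbers did not pair the mice. Alternatives were DESeq2 1.42.0, other filters and scalings, a replicate block, fits of the compared groups alone and omitted libraries. The script was tested on simulated counts. The members, lists and motifs were chosen with earlier results of these data known. Values by mouse are given for genes called with T3 in wild type or in the genotype by T3 interaction (up to 4 per role, smallest adjusted p first), genes called against the majority of their role, Insig1, Insig2, Abcg5 and Abcg8. A few others were added after their values were seen. From the 3 other lists, up to 3 called genes per comparison are named, and some are not reported here.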

Additional observations from a re-analysis of the deposited data

Results flagged for a closer look

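In 6 of 240 groups of 4 mice, 1 mouse stood apart from the other 3, its gap taking more than 0.829 of the range, and chance does this in about 1 in 20 groups. Fdps was high in knockout T3 oil mouse 3, at 22.6 CPM beside 17.1 to 17.7. Ebp was low in knockout T3 oil mouse 2, at 251 CPM beside 299 to 307, and Abcg5 was high in the same mouse, at 228 CPM beside 144 to 155. Scap was high in wild-type PBS CCl4 mouse 2, at 129 CPM beside 58.3 to 66.5. Stard4 was high in wild-type T3 oil mouse 3, at 175 CPM beside 112 to 122. Scarb1 was low in knockout T3 CCl4 mouse 3, at 236 CPM beside 330.3 to 336.

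Differences between settings in the response to T3, tested as interaction terms by edgeR with Benjamini-Hochberg adjustment, were called 33 times. As log2 values of knockout minus wild type, they were on oil Scarb1 (-0.81), Hsd17b7 (-1.51) and Cyp51 (-1.55). The same difference after CCl4 was called for Abcg5 (-2.62), Sc5d (-2.63), Tm7sf2 (-2.08), Abcg8 (-2.61), Acat2 (-2.26), Pmvk (-2.52), Nsdhl (-2.06), Hsd17b7 (-1.59), Cyp51 (-1.81), Dhcr7 (-1.75), Scap (-0.95), Mvk (-1.64), Fdft1 (-1.41), Hmgcs1 (-1.74), Insig2 (-1.41), Msmo1 (-1.45), Abca1 (0.84) and Idi1 (-1.97). As log2 values of the response after CCl4 minus that on oil, wild-type mice gave Lcat (1.05), Ebp (1.27), Tm7sf2 (1.37), Insig1 (1.95), Stard4 (1.26), Sc5d (1.41), Pmvk (1.67), Fdft1 (1.38), Acat2 (1.45) and Abcg5 (1.23). Knockouts gave Scarb1 (1.02) and Abca1 (1.36).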

How the results depend on the processing

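Of 135 calls for single genes in the 16 comparisons, 135 kept their side of the threshold with DESeq2 size factors and 135 with the DESeq2 test, 133 with a replicate block, 120 without the filter on low counts, 118 without both distant libraries (chosen after seeing the data), 109 when only the groups compared were fitted and 106 with library totals alone. Leaving out each library in turn kept 82. Library totals reversed 1 value, Scarb1 with CCl4 in PBS wild type, at 0.01, where that scaling moved the median of all genes by 0.40. The cause of the other changes was not tested.

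Counts of called genes that moved were as follows, with the main count first. T3 in knockouts on oil was 2, then 4 with only the groups compared and 4 without both distant libraries. T3 in knockouts after CCl4 was 1, then 3 with DESeq2, 0 with only the groups compared and 2 without both distant libraries. CCl4 in PBS knockouts was 7, then 3 with totals, 1 with only the groups compared and 2 without both distant libraries. Genotype with PBS after CCl4 was 1, then 0 unfiltered, 4 with DESeq2, 0 with only the groups compared and 2 without both distant libraries. Genotype with T3 on oil was 5, then 13 with totals, 11 with DESeq2, 20 with only the groups compared and 14 without both distant libraries. The genotype difference of the T3 response was 3 on oil, then 5 with totals, 5 with DESeq2, 11 with only the groups compared and 9 without both distant libraries, and 18 after CCl4, then 11 with totals and 9 with only the groups compared. The dependence of T3 on CCl4 in wild type was 10, then 5 with totals (4 higher after CCl4, 1 lower). The replicate block gave 8 in place of 5 for genotype with T3 on oil and 5 in place of 3 for the genotype difference on oil, and moved no other count by over 1.5 times. The numbers do not pair the mice: over 112 same-numbered pairs of libraries the median correlation was -0.01, 13 were over 0.1, and 4 of 32 libraries correlated best with their own number.

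Leaving out 1 library gave ranges of 15 to 21 (T3, wild type, oil), 26 to 27 (T3, wild type, CCl4), 0 to 2 (T3, knockout, oil), 0 to 2 (T3, knockout, CCl4), 12 to 22 (CCl4, wild type, PBS), 0 to 0 (CCl4, wild type, T3), 1 to 9 (CCl4, knockout, PBS), 6 to 10 (CCl4, knockout, T3), 0 to 0 (genotype, PBS, oil), 0 to 6 (genotype, PBS, CCl4), 2 to 7 (genotype, T3, oil), 7 to 14 (genotype, T3, CCl4), 2 to 5 and 11 to 19 (genotype difference of the T3 response on oil and after CCl4), and 4 to 15 and 2 to 2 (dependence of T3 on CCl4 in wild type and knockouts). The filter on low counts left Npc1l1 untested. With 4 mice per group and a median coefficient of variation of the enzymes of 20.9% to 39.2% in the knockout groups, small differences in the knockouts may have gone uncalled.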
